A study of Mus musculus with 4 samples.

Results

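The core autophagy machinery was described gene by gene in bulk RNA sequencing of mouse colonic epithelium during colitis, to see which parts of the pathway differed between control mice and mice labelled *Bmal1* cKO. It was taken as a list of 39 genes matched by symbol, and all 39 were among the 16015 genes listed and among the 13983 that were tested. The list holds 5 genes of the initiation complex, 6 of the nucleation complex, 6 that bring lipid and membrane to the growing autophagosome, 11 of the conjugation reactions, 5 of the ATG8 family, 5 cargo receptors and the transcription factor gene *Tfeb*.

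In macroautophagy, a stretch of cytoplasm is enclosed in a double membrane, the autophagosome, which then fuses with lysosomes. The ULK kinase complex starts the process, a class III phosphatidylinositol 3-kinase complex marks the site with its lipid, and ATG2, ATG9 and VMP1 supply the membrane. A pair of reactions that resemble ubiquitin conjugation joins ATG12 to ATG5 and attaches the ATG8 proteins to phosphatidylethanolamine, and cargo receptors bind both the ATG8 proteins and ubiquitin-tagged cargo. In the intestinal epithelium autophagy is known for its role in Paneth and goblet cell secretion and in the defense against bacteria, and *ATG16L1* is a known susceptibility gene for Crohn's disease.

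*Bmal1* (listed as *Arntl*) encodes the core circadian activator. Control mice, labelled WT, were *Bmal1* fl/fl, and the mice labelled *Bmal1* cKO carried *Villin-CreERT2* on the same *Bmal1* fl/fl alleles. This tamoxifen-dependent Cre is driven by the promoter of the epithelial gene villin, so that it acts in intestinal epithelial cells and leaves *Bmal1* intact in other cells. Tamoxifen was injected for 5 days to activate Cre, and whether the control mice received it is not given in the sources used here. All animals were on a C57BL/6 background and 2 to 4 months old. They drank 3% dextran sulfate sodium (DSS), which injures the colonic epithelium, for 5 days and water for 2 days, and colonic epithelium was taken on day 7 from 2 mice of each group.

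The libraries held 10312791 to 14156639 reads on the listed genes. Values are given as normalized counts, reads scaled by a DESeq2 size factor to make the libraries comparable. The targeted gene did not separate the groups by much. *Arntl* had 358 and 342 normalized counts in the control libraries and 341 and 289 in the cKO-labelled libraries, a log2 fold change of -0.16 (limma, adjusted p = 0.389), and of -0.55 (adjusted p = 0.0393) when each library was corrected for transcript GC content and length. The values cover the whole gene and do not set apart the deleted exons, so every direction given here is between libraries as they are labelled. Epithelial markers summed to 146468 and 169085 normalized counts in control libraries and to 134215 and 141739 in cKO-labelled ones. Leukocyte markers summed to 20501 and 23179 in controls and to 1584 and 1890 in the cKO-labelled libraries, with 14 of 15 lower by limma. The 2 control libraries differed in the kind of leukocyte genes, with *S100a8* at 1424 and 8066 and *Cd74* at 7602 and 2296 normalized counts, and in the stromal sum given next. Over all genes the reads of the control libraries differed from each other with a mean chi-square of 40.9, against 10.1 for the cKO-labelled libraries. Stromal and endothelial markers summed to 16588 and 3985 against 532 and 610, with 13 of 14 lower. Red cell markers summed to 1348 and 2033 against 19.5 and 17.6, with 5 of 5 lower. Among defining markers, *Des* and *Hbb-bt* were at 0 in cKO-labelled library 1, *Rgs5* in library 2 and *Hba-a2* in both. The part of these cells in the values of the autophagy genes was not tested, and in bulk samples fewer cells of a type cannot be told apart from less RNA per cell.

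Of the 39 genes, 14 rose and 7 fell in the cKO-labelled libraries by limma at an adjusted p under 0.05, and 18 did not pass the test. Among all tested genes 29.0% were higher and 27.7% were lower, so the share of autophagy genes that passed in either direction, 53.8%, was near the 56.7% of all genes. Without control mouse 2 the falls were 4. On the recovered reads, edgeR and DESeq2 each found 13 that rose and 7 that fell, with 27.6% higher, 27.3% lower and 54.9% in either direction among all genes by edgeR, and 26.6%, 27.2% and 53.8% by DESeq2. The median log2 fold change of the autophagy genes was 0.07, beside -0.04 for all genes. Both cKO-labelled libraries lay above both control libraries for 20 of the 39 and below for 15, and the groups overlapped for *Atg101*, *Uvrag*, *Wipi1* and *Atg3*. Over all tested genes, 40.3% lay above, 41.7% below and thus 82.1% on one side. The list as a whole therefore did not move one way, and in 5 of its 6 groups of several genes both rises and falls passed the test.

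**Figure D1:**
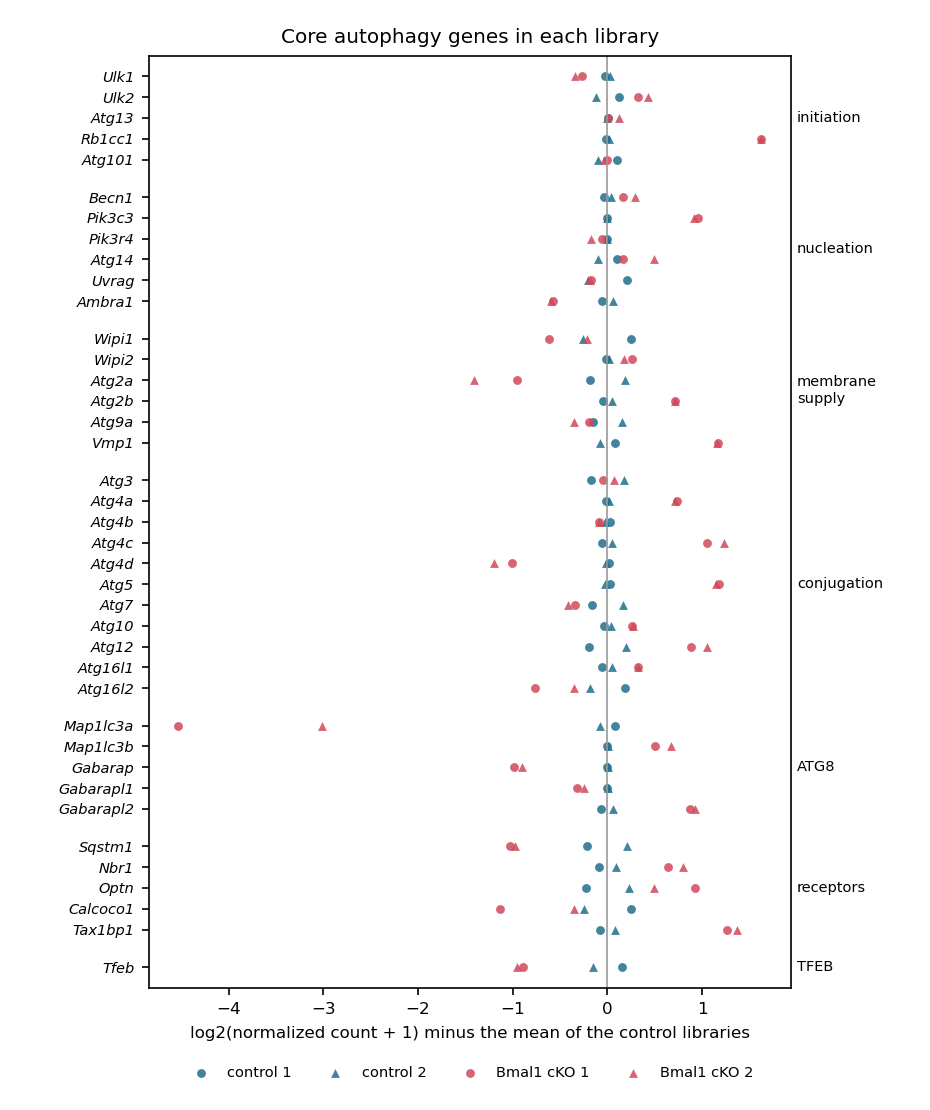
Each point is 1 library, placed at its log2(normalized count + 1) minus the mean of the 2 control libraries, for the 39 autophagy genes in rows by function. The points of the cKO-labelled libraries lie on both sides of the control points, from *Map1lc3a* far to the left to *Rb1cc1* at the right.

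Fold changes in these libraries followed the base composition of the transcripts. When all genes were ordered into 10 classes by GC content, the median log2 fold change went from 1.16 in the lowest class to -1.37 in the highest. Across genes, Spearman's rho between log2 fold change and GC content was -0.62 over 13975 genes and -0.78 over the 39 autophagy genes. These points come from the same 4 libraries. The 14 autophagy genes that rose had a median GC content of 45.0% (39.1 to 55.2%), and the 7 that fell had one of 54.7% (50.8 to 63.2%). Each library was therefore also corrected for GC content and transcript length with a loess fit, which left a rho of 0.01 over all genes. After this correction 14 autophagy genes rose and 6 fell, where 17.3% and 17.0% of all genes did and 34.3% passed in either direction, and the median log2 fold change was 0.23, beside -0.02 for all genes. In both forms of the data 9 genes rose, namely *Rb1cc1*, *Pik3c3*, *Atg2b*, *Vmp1*, *Atg5*, *Atg16l1*, *Map1lc3b*, *Gabarapl2* and *Tax1bp1*, and 4 fell, namely *Atg4d*, *Map1lc3a*, *Gabarap* and *Sqstm1*. Of all genes, 11.4% rose and 12.3% fell in both forms. The corrected calls depended on single mice, and calls were lost across all genes as well, most of them without a cKO-labelled mouse (shares given below). When each mouse was left out of the corrected data in turn, *Map1lc3b* kept its call in all 4 fits and *Gabarap* in 3. A further 7 of the 20 calls were kept in 2 fits (*Atg4d*, *Atg2b*, *Pik3c3*, *Ulk1*, *Atg101*, *Atg16l1* and *Atg5*), 7 in 1 (*Rb1cc1*, *Wipi2*, *Vmp1*, *Atg3*, *Map1lc3a*, *Sqstm1* and *Tax1bp1*) and 4 in none (*Atg13*, *Becn1*, *Gabarapl2* and *Tfeb*).

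**Figure D2:**
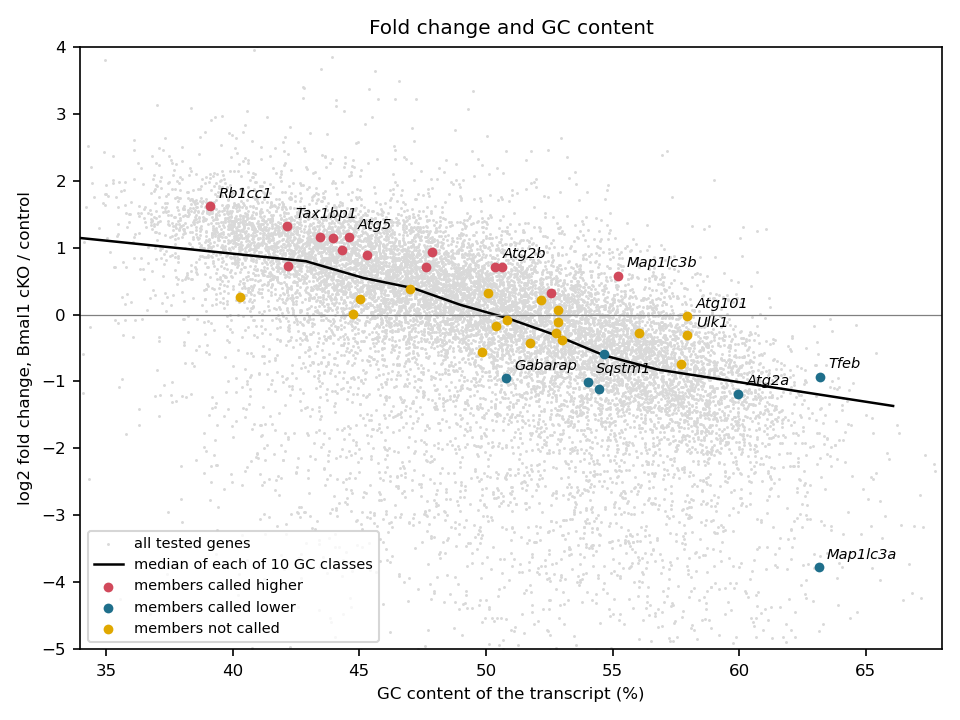
GC content of the transcript (%) against the log2 fold change of the cKO-labelled over the control libraries, with all tested genes in gray, the median of each of 10 GC classes as a line and the 39 autophagy genes colored by their call; a few genes lie outside the axes. *Map1lc3b* and *Atg101* lie farthest above the line and *Map1lc3a* and *Gabarap* farthest below it.

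The initiation complex holds the kinases ULK1 and ULK2, the scaffold RB1CC1 (FIP200), and the adaptors ATG13 and ATG101. Of its 5 genes only *Rb1cc1* rose and none fell (20% called, against 56.7% of all genes), with a median log2 fold change of 0.07. *Rb1cc1* (chromosome 1, 6206197 to 6276648, GRCm38) had 922 and 940 normalized counts in the control libraries and 2860 and 2875 in the cKO-labelled libraries. The cKO-labelled values were 3.08-fold those of the controls, a log2 fold change of 1.62 ± 0.08 (SE) with a limma adjusted p of 0.000533. The libraries of each group lay close together, far from those of the other group. With a GC content of 39.1%, *Rb1cc1* belongs to the class whose median log2 fold change was 1.16, and after correction its own was 0.39 (limma, adjusted p = 0.0235), a call lost in 3 of the 4 corrected fits without a mouse (adjusted p up to 0.116).

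The other initiation genes did not pass the test as deposited. *Ulk1*, the main kinase of the complex, had 516 and 537 normalized counts in controls and 436 and 416 in cKO-labelled libraries, a log2 fold change of -0.30 (limma, adjusted p = 0.0618). *Ulk2*, its close relative, had 359 and 302 against 412 and 445, a log2 fold change of 0.38 (limma, adjusted p = 0.0693). The 2 kinase genes thus lay on opposite sides of the controls, with groups that did not overlap, as was so for 82.1% of all genes. *Atg13*, at 543 and 537 against 544 and 588, and *Atg101*, at 498 and 430 against 460 and 453, had log2 fold changes of 0.07 and -0.02. After correction, *Ulk1* rose by a log2 fold change of 0.63 (limma, adjusted p = 0.0137), *Atg101* by 1.03 (adjusted p = 0.00577) and *Atg13* by 0.39 (adjusted p = 0.0401), whereas *Ulk2* was at -0.08 (adjusted p = 0.648). In the corrected values 4 of the 5 initiation genes thus rose, where 17.3% of all genes did, with a median of 0.39. The rise of *Atg13* was lost when any 1 mouse was left out of the corrected data (adjusted p from 0.0936 to 0.166), and none of the 4 passed without either cKO-labelled mouse. *Ulk1* and *Atg101* have a GC content of 58.0%, at the lower edge of their class (57.9 to 74.2%). The median log2 fold change of this class was -1.37, and that of the class below it -0.82.

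The nucleation complex is built on the lipid kinase PIK3C3 (VPS34) with its regulatory subunit PIK3R4 and Beclin 1, and is joined by ATG14, UVRAG or AMBRA1. Of its 6 genes *Pik3c3* rose and *Ambra1* fell (33.3% called, against 56.7% of all genes), with a median log2 fold change of 0.06. After correction 1 rose and 1 fell (33.3%, against 34.3% of all genes). *Pik3c3*, the catalytic subunit, had 453 and 452 normalized counts in controls and 879 and 856 in cKO-labelled libraries. Its log2 fold change was 0.94 ± 0.10 (SE; limma, adjusted p = 0.00121), and after correction it was 0.56 (adjusted p = 0.0135). *Ambra1*, a scaffold that links Beclin 1 to ubiquitin ligases, had 527 and 568 in controls and 366 and 362 in cKO-labelled libraries, a log2 fold change of -0.59 ± 0.11 (SE; limma, adjusted p = 0.00868). The fall of *Ambra1* did not remain after correction, where its log2 fold change was -0.08 (adjusted p = 0.61), and it also missed the threshold without control mouse 2 (-0.53, adjusted p = 0.0564) or without cKO-labelled mouse 2 (-0.58, adjusted p = 0.0509).

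*Becn1*, which encodes Beclin 1, had 672 and 707 normalized counts in controls and 774 and 843 in cKO-labelled libraries. Its log2 fold change was 0.23 (limma, adjusted p = 0.112) as deposited and -0.41 (adjusted p = 0.0292) after correction, a call lost in every corrected fit without a mouse (adjusted p from 0.0691 to 0.137). Along 43.9% of its exonic bases *Becn1* is overlapped on the opposite strand by *Cntd1*, whose mean normalized count was 22.4, and whether the counting used strand is not given in the sources used here. *Pik3r4* had 484 and 484 against 466 and 430, *Atg14* had 155 and 136 against 163 and 204, and *Uvrag* had 324 and 242 against 249 and 247. Their corrected log2 fold changes were 0.16, 0.30 and -0.21. An antisense gene, *Gm45187*, overlaps 17.6% of the exonic bases of *Uvrag*. None of these 3 passed the test in either form of the data, and the catalytic subunit was the only one of the complex that rose in both.

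Among the genes for membrane supply, *Vmp1* and *Atg2b* rose and *Atg2a* fell (50% called, against 56.7% of all genes). The median log2 fold change of the 6 was -0.03. After correction 3 rose and none fell (50%, against 34.3% of all genes). *Vmp1* encodes a lipid scramblase of the endoplasmic reticulum. It had 2423 and 2158 normalized counts in controls and 5156 and 5094 in cKO-labelled libraries, 2.24-fold higher, with a log2 fold change of 1.16 ± 0.10 (SE; limma, adjusted p = 0.000706). After correction it was 0.37 (adjusted p = 0.0448), a call lost in 3 of the 4 corrected fits without a mouse (adjusted p up to 0.19).

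*Atg2a* and *Atg2b* encode the 2 forms of the tube that carries lipids into the growing membrane, and they changed in opposite directions. *Atg2b* had 635 and 675 normalized counts in controls and 1074 and 1079 in cKO-labelled libraries, a log2 fold change of 0.72 ± 0.10 (SE; limma, adjusted p = 0.0024). This value was nearly the same after correction, at 0.69 (adjusted p = 0.00764). *Atg2a* had 781 and 1004 in controls and 457 and 333 in cKO-labelled libraries, a log2 fold change of -1.18 ± 0.20 (SE; limma, adjusted p = 0.00566). *Atg2a* has a GC content of 60.0%, and after correction no difference was called (0.10, adjusted p = 0.724). Without control mouse 2 the fall of *Atg2a* as deposited missed the threshold (-1.0, adjusted p = 0.0523). Per kilobase of transcript, *Atg2a* made up 59.3% and 63.8% of the ATG2 transcripts in controls and 33.5% and 26.7% in cKO-labelled libraries. In the corrected values these shares were 47.2% and 53.7% against 42.9% and 37.7%, so the groups still did not overlap but the distance between them was smaller.

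*Atg9a*, the membrane protein of the vesicles that seed the autophagosome, had 721 and 891 normalized counts in controls and 699 and 629 in cKO-labelled libraries. The WIPI proteins bind the lipid made by PIK3C3. *Wipi1* had 223 and 157 against 121 and 161, and *Wipi2* had 766 and 787 against 928 and 877. None of the 3 passed the test as deposited. *Wipi1* had log2 fold changes of -0.42 and, corrected, -0.26. *Wipi2* rose after correction (0.41, limma adjusted p = 0.0318), in 1 of the 4 corrected fits without a mouse, and *Atg9a* moved from a log2 fold change of -0.27 to 0.42 (adjusted p = 0.0613). *Gm29253* overlaps 31.8% of the exonic bases of *Atg9a* on the same strand, so their reads may not be separable.

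Of the 11 genes of the conjugation reactions, 5 rose and *Atg4d* fell (54.5% called, against 56.7% of all genes), with a median log2 fold change of 0.27. *Atg5* encodes the protein to which ATG12 is joined. It had 531 and 513 normalized counts in controls and 1183 and 1154 in cKO-labelled libraries, 2.24-fold higher, with a log2 fold change of 1.16 ± 0.09 (SE; limma, adjusted p = 0.000667), and after correction it was 0.53 (adjusted p = 0.015). *Atg12* had 589 and 776 in controls and 1245 and 1404 in cKO-labelled libraries, a log2 fold change of 0.97 ± 0.16 (SE; limma, adjusted p = 0.00485). The 2 partners of the conjugate thus rose together as deposited. After correction *Atg12* no longer passed (0.23, adjusted p = 0.277), and without cKO-labelled mouse 2 it missed the threshold as deposited (0.88, adjusted p = 0.0578).

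*Atg16l1* encodes the protein that brings the ATG12-ATG5 conjugate to the membrane. It had 528 and 568 normalized counts in controls and 684 and 683 in cKO-labelled libraries. Its log2 fold change was 0.32 ± 0.10 (SE; limma, adjusted p = 0.0451), and after correction it was 0.58 (adjusted p = 0.0136). As deposited this change was small and lost its call when any 1 of the 4 mice was left out (adjusted p from 0.0794 to 0.148) and under edgeR (adjusted p = 0.0528) and DESeq2 (adjusted p = 0.142). Its relative *Atg16l2* had 114 and 88.1 against 58.6 and 78.4 (limma, adjusted p = 0.152), with log2 fold changes of -0.56 and, corrected, -0.65. Per kilobase *Atg16l1* made up 90.5 to 96.0% of the ATG16L transcripts in the 4 libraries.

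The 4 ATG4 proteases trim the ATG8 proteins before conjugation and release them from lipid afterwards. *Atg4a* had 259 and 265 normalized counts in controls and 438 and 431 in cKO-labelled libraries, and *Atg4c* had 252 and 271 against 543 and 616. Their log2 fold changes were 0.73 ± 0.12 and 1.14 ± 0.13 (SE; limma, adjusted p = 0.00526 and 0.00155). Both genes lost their call after correction, *Atg4a* at -0.16 (adjusted p = 0.336) and *Atg4c* at 0.39 (adjusted p = 0.0675). *Atg4d* moved the other way and fell in both forms of the data. It had 752 and 732 in controls and 367 and 322 in cKO-labelled libraries, a log2 fold change of -1.11 ± 0.12 (SE; limma, adjusted p = 0.00131), and after correction it was -0.60 (adjusted p = 0.0147). *Kri1* overlaps 19.3% of the exonic bases of *Atg4d* on the opposite strand, with a mean normalized count of 106. *Atg4b*, which has the broadest activity of the 4, differed little, at 514 and 498 against 476 and 477 (limma, adjusted p = 0.513), with log2 fold changes of -0.09 and, corrected, -0.02. Per kilobase, *Atg4d* made up 28.3% and 27.4% of the ATG4 transcripts in controls and 11.3% and 9.69% in cKO-labelled libraries, and in the corrected values 21.2% and 21.4% against 15.4% and 13.9%.

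The E1-like enzyme ATG7 and the E2-like enzymes ATG3 and ATG10 drive both reactions. None of their genes passed the test as deposited. *Atg7* had 321 and 403 normalized counts in controls and 284 and 269 in cKO-labelled libraries, *Atg3* had 446 and 571 against 488 and 529, and *Atg10* had 45.6 and 48.3 against 56.6 and 56.8. *Atg10* was the conjugation gene with the fewest reads, at 42 to 57 per library, and its 95% interval of the log2 fold change, -0.48 to 1.02, was wide. After correction *Atg3* fell by 0.63 on the log2 scale (limma, adjusted p = 0.0214; lost in 3 of the 4 fits without a mouse, adjusted p up to 0.12), while *Atg7* was at -0.00 (adjusted p = 0.993) and *Atg10* at -0.79 (adjusted p = 0.0925). Over the 11 conjugation genes the corrected counts were 2 that rose and 2 that fell, 36.4% against 34.3% of all genes.

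The letters of the E-box, CACGTG, are bound by BMAL1 with its partner CLOCK, and by TFEB and its relatives, so the promoters of the autophagy genes were searched for them. RefSeq windows of 250 bases before to 50 after a transcript start (GRCm38.p6) were at hand for 33 of the 39 genes, in 41 windows. CACGTG, which reads the same on both strands, was in 9.76% of these windows and in 7.15% of all 32851 windows. It occurred in windows of *Atg3*, *Atg5*, *Atg7* and *Atg14*, and the longer TCACGTGA, which contains it and is typical of TFEB targets, was found only in *Atg3* (2.44% of the windows, against 0.974% of all). The stretches around the motif are shown because they are the places where these letters occur in the list, 5′ to 3′ on the strand of the gene, with the motif in capitals.
*Atg3*, chr16:45158715-45158783, plus strand: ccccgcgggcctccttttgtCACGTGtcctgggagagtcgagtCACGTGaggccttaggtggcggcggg
*Atg5*, chr10:44268305-44268350, plus strand: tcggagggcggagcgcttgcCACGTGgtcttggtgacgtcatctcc
*Atg7*, chr6:114670944-114670989, plus strand: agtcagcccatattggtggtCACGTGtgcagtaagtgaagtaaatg
*Atg14*, chr14:47568410-47568455, minus strand: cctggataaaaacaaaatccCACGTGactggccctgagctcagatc

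The first base of the motif lies 94 and 71 bases before the start in *Atg3*, 14 bases before it in *Atg5*, 132 in *Atg7* and 1 in *Atg14*. The starts of *Atg7* and *Atg14* are inner ones, 27999 and 2215 bases downstream of the first base of the gene in the annotation. Of these 4 genes *Atg5* rose in both forms of the data, *Atg3* fell only after correction, and *Atg7* and *Atg14* passed the test in neither.

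The 5 ATG8 genes showed the widest spread of fold changes of the groups as deposited, which rested on *Map1lc3a* alone. The log2 fold changes of the rest ranged from -0.95 to 0.90, a narrower span than in the membrane supply, conjugation and receptor groups. The ATG8 proteins are attached to the autophagosome membrane and fall into the LC3 branch (*Map1lc3a*, *Map1lc3b*) and the GABARAP branch (*Gabarap*, *Gabarapl1*, *Gabarapl2*). In each branch 1 gene rose and 1 fell, in both forms of the data. The share called was 80% in each form, against 56.7% of all genes as deposited and 34.3% after correction. *Map1lc3a* (chromosome 2, 155276297 to 155278073) had 250 and 224 normalized counts in controls and 9.26 and 28.4 in cKO-labelled libraries, 12.6-fold lower by the means. Its log2 fold change was -3.78 ± 0.54 (SE; limma, adjusted p = 0.00297) and after correction -1.88 (adjusted p = 0.047). Over the corrected fits without a mouse it ranged from -2.66 to -1.09, and the call was lost in 3 of 4 (adjusted p up to 0.092). The cKO-labelled values rest on 9 and 21 reads, and the gene has a GC content of 63.1%, in the class with a median log2 fold change of -1.37. The leukocyte and the stromal and endothelial markers had median log2 fold changes of -3.71 and -3.78 in the same libraries, and the part of such cells in the value of *Map1lc3a* was not tested.

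*Map1lc3b* (chromosome 8, 121590361 to 121598760), the most widely used marker of autophagosomes, went the other way. It had 1309 and 1320 normalized counts in controls and 1859 and 2091 in cKO-labelled libraries, 1.5-fold higher. Its log2 fold change was 0.58 ± 0.10 (SE; limma, adjusted p = 0.00525), and after correction it was larger, at 1.18 (adjusted p = 0.00334). *Map1lc3b* thus rose against the trend, since its GC content of 55.2% puts it in a class with a median log2 fold change of -0.61.

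*Gabarap* (chromosome 11, 69991143 to 69994951) had the highest level of the 39 genes in controls, at a mean of 1822 normalized counts per kilobase, with *Tax1bp1* next at 1767 and an overlap between the libraries of both genes. It had 2453 and 2471 normalized counts in controls and 1238 and 1318 in cKO-labelled libraries, 1.93-fold lower. The log2 fold change was -0.95 ± 0.09 (SE; limma, adjusted p = 0.00087) and hardly moved with the correction, to -0.81 (adjusted p = 0.00421). The class of genes of its GC content, 50.8%, had a median log2 fold change of -0.05. *Gabarapl2*, known as GATE-16, had 578 and 632 against 1105 and 1145, a log2 fold change of 0.90 ± 0.10 (SE; limma, adjusted p = 0.00147), and 0.35 after correction (adjusted p = 0.0368). The corrected call of *Gabarapl2* was lost in every fit without a mouse (adjusted p from 0.0703 to 0.145) and with the mouse number as a block (adjusted p = 0.0643). *Gabarapl1* had 208 and 208 against 167 and 176 and passed in neither form of the data (limma, adjusted p = 0.182 as deposited), with 28.3% of its exonic bases overlapped on the opposite strand by *1700101I11Rik*.

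These opposite changes altered the make-up of the ATG8 transcripts. Per kilobase, *Gabarap* made up 60.6% and 60.5% of them in controls and 38.5% and 37.9% in cKO-labelled libraries. *Map1lc3b* went from 16.6% and 16.6% to 29.6% and 30.8%, and *Gabarapl2* from 11.5% and 12.5% to 27.7% and 26.5%. *Map1lc3a* went from 7.51% and 6.68% to 0.350% and 0.992%. In the corrected values the shares of *Gabarap* were 62.5% and 62.0% against 39.3% and 36.8%, and those of *Map1lc3b* 14.5% and 14.6% against 33.9% and 36.8%. The shift was smaller after correction for *Gabarapl2*, at 15.4% and 15.8% against 22.1% and 20.5%, and for *Map1lc3a*, at 3.98% and 3.90% against 0.658% and 1.89%. The shift from *Gabarap* to *Map1lc3b* was therefore present in both forms, with a small spread within each group. The sum over the 5 genes was 2996 and 3023 normalized counts per kilobase in controls and 2381 and 2574 in cKO-labelled libraries. With 2 libraries against 2, an exact permutation test of a share cannot go below p = 0.333, and none was run.

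**Figure D3:**
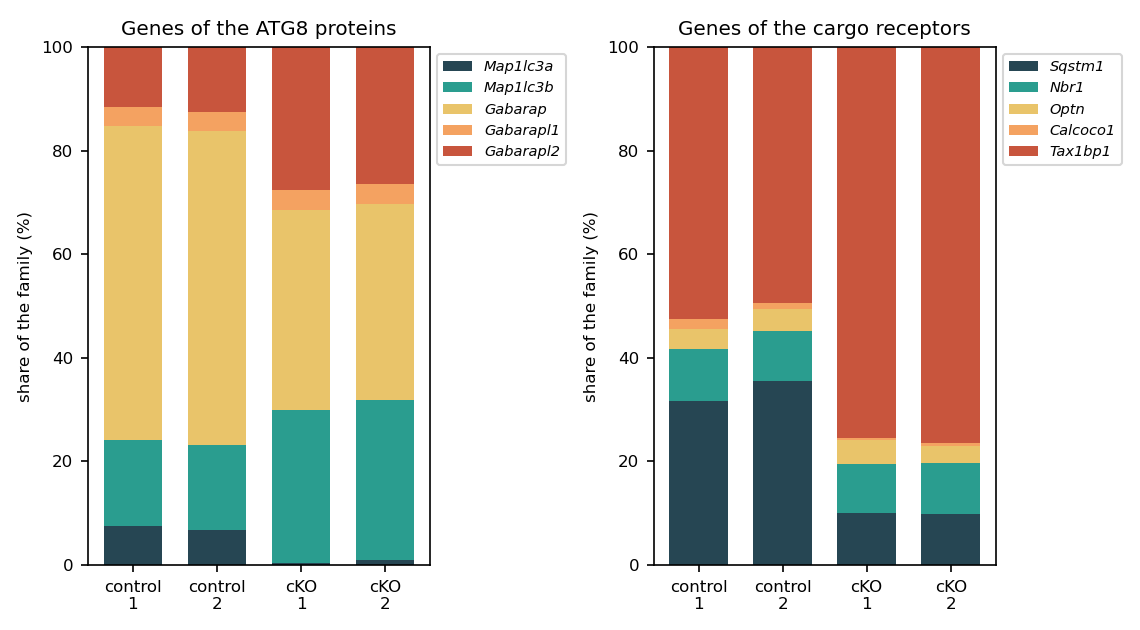
Share (%) of each gene in the summed normalized counts per kilobase of its family in each of the 4 libraries, for the ATG8 genes and the cargo receptor genes. *Gabarap* and *Sqstm1* take a smaller share and *Map1lc3b*, *Gabarapl2* and *Tax1bp1* a larger one in both cKO-labelled libraries.

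Cargo receptors link ubiquitin-tagged material to the ATG8 proteins. Of their 5 genes 3 rose and *Sqstm1* fell (80% called, against 56.7% of all genes), and the median log2 fold change was 0.71. After correction 1 rose and 1 fell (40%, against 34.3% of all genes), with a median of 0.29. *Tax1bp1*, a receptor for protein aggregates and bacteria that also restrains inflammatory signaling, had 5474 and 6135 normalized counts in controls and 13960 and 15017 in cKO-labelled libraries. It was 2.50-fold higher, with a log2 fold change of 1.32 ± 0.12 (SE; limma, adjusted p = 0.000757). In the cKO-labelled libraries its level, a mean of 4411 normalized counts per kilobase, was the highest of the 39 genes. Its GC content of 42.2% falls in a class with a median log2 fold change of 0.80, and after correction its own was 0.39 (adjusted p = 0.0449), a call lost in 3 of the 4 corrected fits without a mouse (adjusted p up to 0.225). *Nbr1* had 1521 and 1716 against 2519 and 2802, a log2 fold change of 0.72 ± 0.11 (SE; limma, adjusted p = 0.00371). *Optn*, a receptor for damaged mitochondria and bacteria, had 315 and 431 against 702 and 520, a log2 fold change of 0.71 ± 0.22 (SE; limma, adjusted p = 0.0376).

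Of these 3 receptor genes only *Tax1bp1* kept its call after correction. *Nbr1* was then at 0.29 (limma, adjusted p = 0.0828) and *Optn* at 0.75 (adjusted p = 0.0509), just beyond the threshold. *Optn* varied within both groups, and leaving out any 1 of the 4 mice ended its call (adjusted p from 0.0546 to 0.203). *Calcoco1*, with 176 and 124 against 66.9 and 115, did not pass (limma, adjusted p = 0.118).

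*Sqstm1* (chromosome 11, 50199366 to 50210827) encodes p62, the receptor that is itself degraded by autophagy. It had 2687 and 3597 normalized counts in controls and 1522 and 1583 in cKO-labelled libraries, 2.02-fold lower. Its log2 fold change was -1.0 ± 0.15 (SE; limma, adjusted p = 0.00381) and -0.54 (adjusted p = 0.0456) after correction, a call lost in 3 of the 4 corrected fits without a mouse (adjusted p up to 0.207). The control libraries differed from each other more than the cKO-labelled ones did, and without cKO-labelled mouse 1 the adjusted p was 0.0505 (-0.97). On the opposite strand *Mrnip* shares 17.3% of the exonic bases of *Sqstm1*, at a mean of 6.78 normalized counts. Per kilobase, *Sqstm1* made up 31.7% and 35.6% of the receptor transcripts in controls and 10.1% and 9.89% in cKO-labelled libraries, and *Tax1bp1* 52.6% and 49.4% against 75.4% and 76.4%. In the corrected values the shares of *Sqstm1* were 23.0% and 26.7% against 14.7% and 14.7%, and those of *Tax1bp1* 62.7% and 59.1% against 68.4% and 69.5%.

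*Tfeb* encodes the transcription factor that switches on genes of autophagy and lysosomes. It had 194 and 157 normalized counts in controls and 93.6 and 89.2 in cKO-labelled libraries, a log2 fold change of -0.93 ± 0.21 (SE; limma, adjusted p = 0.0156). With a GC content of 63.2% it has the highest of the list, and after correction the direction turned, to 0.91 (adjusted p = 0.0222). Both calls were lost without any 1 of the 4 mice, the one as deposited (adjusted p from 0.0504 to 0.105) and the corrected one (adjusted p from 0.0575 to 0.106). The direction of *Tfeb* thus depended on the correction. *Atg2a* and *Ambra1* also lost their falls with the correction, and *Tfeb* was the only gene of the list called in opposite directions.

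**Figure D4:**
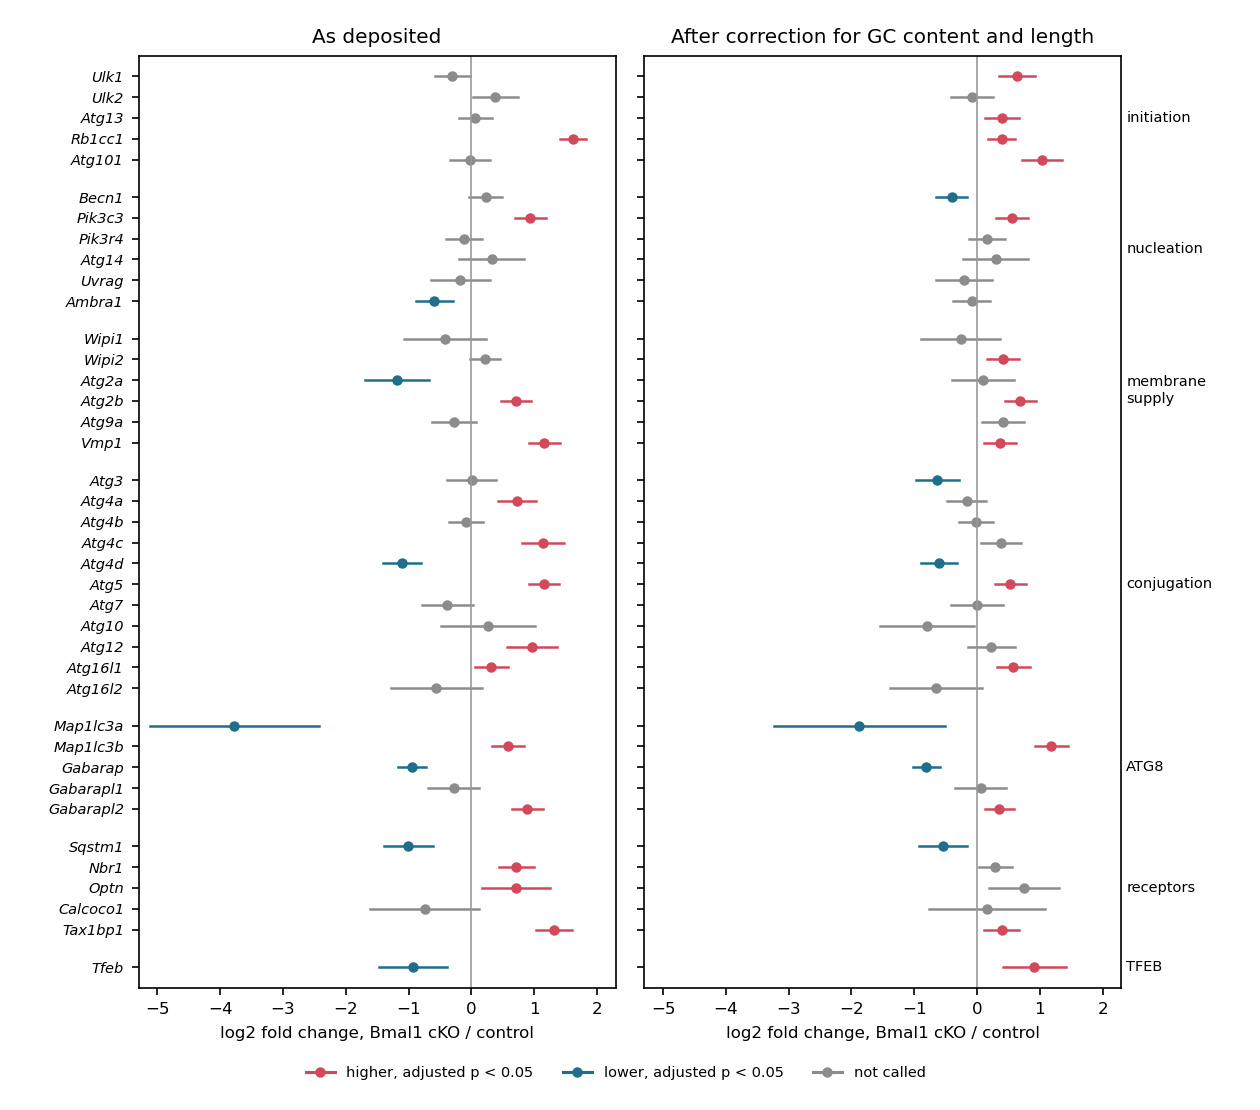
Log2 fold change of the cKO-labelled over the control libraries with its 95% confidence interval for each of the 39 autophagy genes, as deposited (left) and after correction for GC content and transcript length (right), colored by limma's call. *Map1lc3b* and *Gabarap* keep their side in both panels, while *Tfeb* passes from -0.93 to 0.91.

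Across the planned processing alternatives, 5 genes rose in every one (*Rb1cc1*, *Pik3c3*, *Atg2b*, *Atg5* and *Map1lc3b*) and 3 fell in every one (*Atg4d*, *Map1lc3a* and *Gabarap*). Of the 11227 genes that every alternative tested, 8.59% rose and 7.11% fell in all of them. When a mouse was left out of the corrected data, an alternative added after the data were seen, the number of autophagy genes that rose was 8 without control mouse 1, 12 without control mouse 2, and 1 without either cKO-labelled mouse. The number that fell was 4, 2, 0 and 2 in the same order. Calls were lost across all genes in the same fits, where 13.5%, 15.5%, 1.25% and 2.33% of the genes were higher and 13.2%, 17.3%, 2.07% and 3.03% lower, so the low counts without a cKO-labelled mouse are not particular to the autophagy genes. The 1 gene that rose in each of the last pair of fits was *Map1lc3b*. It had corrected log2 fold changes from 1.07 to 1.29 and limma adjusted p from 0.00243 to 0.0482 over these 4 fits.

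The rest of the pathway was described by 6 further lists of genes, of which 97 of 100 were tested. Of the 97, 32 rose and 35 fell as deposited, and 25 rose and 16 fell after correction. The share called in either direction was 69.1% as deposited, beside the 56.7% of all genes, and 42.3% after correction, beside 34.3%. For the vacuolar ATPase, the proton pump that acidifies lysosomes, 6 of 16 genes rose and 2 fell (50% called, against 56.7% of all genes), and after correction 7 rose and 4 fell (68.8%, against 34.3%). *Atp6v0a2*, a membrane subunit, had 1563 and 1751 normalized counts in controls and 4231 and 3963 in cKO-labelled libraries, with a log2 fold change of 1.31 ± 0.10 (SE; limma, adjusted p = 0.000606) that did not shrink with the correction (1.34, adjusted p = 0.0033). *Atp6v1c1* had 569 and 618 against 1367 and 1444 (1.24, corrected 0.65). Other subunits of the same pump fell, *Atp6v0c* with 1504 and 1577 against 587 and 388 (-1.69, corrected -0.90) and *Atp6v1f* with 591 and 554 against 188 and 237 (-1.44, corrected -0.88). All 4 passed the test in both forms of the data.

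Among 22 genes of lysosomal membrane proteins and enzymes, 6 rose and 10 fell (72.7% called, against 56.7% of all genes), with a median log2 fold change of -0.27, and after correction 6 rose and 5 fell (50%, against 34.3%). *Lamp2*, a main protein of the lysosomal membrane, had 2012 and 1681 normalized counts in controls and 6602 and 6949 in cKO-labelled libraries, with log2 fold changes of 1.88 as deposited and 0.63 after correction (limma, adjusted p = 0.000533 and 0.013). *Lipa*, the lysosomal acid lipase, had 579 and 508 against 1388 and 1114 (1.2, corrected 0.60) and passed in both. The protease gene *Ctsz* (1672 and 1484 against 596 and 784) and the sialidase gene *Neu1* (1579 and 2658 against 879 and 1023) fell as deposited and did not pass after correction, where they were at -0.25 and -0.26 (adjusted p = 0.287 and 0.474). Of 16 genes for fusion with lysosomes, 4 rose and 7 fell (68.8% called, against 56.7% of all genes), and after correction 3 rose and 2 fell (31.2%, against 34.3%). The SNARE genes *Snap29*, with 416 and 497 against 900 and 1062 (1.10, corrected 0.53), and *Vamp8*, with 701 and 768 against 321 and 292 (-1.26, corrected -1.10), moved in opposite directions in both forms of the data. *Stx17*, the SNARE on the autophagosome itself, had 518 and 715 against 942 and 1138 (0.77, corrected -0.02), and *Tecpr1*, a tether, had 525 and 623 against 297 and 326 (-0.88, corrected 0.09).

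For receptors of mitophagy and ER-phagy, the removal of mitochondria and endoplasmic reticulum, 7 of 13 tested genes rose and 4 fell, 84.6% against the 56.7% of all genes. After correction 4 rose and none fell, 30.8% against 34.3%, of which *Fundc1* and *Rtn3* had also risen as deposited, while *Fkbp8* (-0.75 to 1.07) and *Tex264* (-0.60 to 0.85) had fallen (these 2 and *Rtn3* are named after their values were seen). *Fundc1*, a receptor on mitochondria, had 288 and 266 normalized counts in controls and 939 and 852 in cKO-labelled libraries, with log2 fold changes of 1.69 and, corrected, 0.45 (limma, adjusted p = 0.000542 and 0.0399). *Retreg1*, a receptor on the endoplasmic reticulum, had 597 and 947 against 1509 and 2052 (1.23, corrected 0.60). *Pink1*, the kinase that marks damaged mitochondria, had 666 and 597 against 289 and 280, and *Phb2*, an inner-membrane receptor, had 1642 and 1658 against 815 and 923. Only *Fundc1* of these 4 passed in both forms, and *Pink1* and *Phb2* were at -0.00 and -0.05 after correction.

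Among 27 tested genes of mTORC1 and AMPK, the nutrient sensors that restrain and promote autophagy, 9 rose and 10 fell (70.4% called, against 56.7% of all genes). After correction 5 rose and 3 fell, and the share went from above to below that of all genes (29.6%, against 34.3%). *Deptor*, an inhibitor of mTOR, had 1459 and 1498 normalized counts in controls and 3549 and 4219 in cKO-labelled libraries, with log2 fold changes of 1.39 and, corrected, 0.70 (limma, adjusted p = 0.000666 and 0.00948). *Prkaa1*, a catalytic subunit of AMPK, had 940 and 952 against 2092 and 2184 (1.18, corrected 0.01). *Sesn2* (245 and 338 against 107 and 71.6) and *Akt1s1* (754 and 813 against 276 and 264) fell as deposited, with log2 fold changes of -1.71 and -1.53, and neither passed after correction, at -0.65 and 0.11. Of the 3 relatives of *Tfeb*, *Tfe3* and *Tfec* fell as deposited, where 27.7% of all genes fell, and *Tfec* and *Mitf* after correction, where 17.0% did. *Tfe3* had 457 and 436 normalized counts against 200 and 176 (-1.25, corrected -0.39). The other two had low counts, *Tfec* with 40 and 21 reads in controls against 1 and 1 in cKO-labelled libraries, and *Mitf* with 39 and 37 reads against 11 and 17 (both named after their values were seen).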

How the data were processed

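From total RNA of colonic epithelium of 2 control and 2 *Bmal1* cKO mice, mRNA libraries were made and sequenced. The authors aligned the reads with STAR (GRCm38, mm10), and the signal values they deposited for each library are gene counts divided by DESeq2 size factors. The counter, annotation and use of strand are not given in the sources used here. The deposited table also holds the authors' mean (a signal), log2 fold changes with standard errors, a Wald score, and p-values with adjusted p-values, which were not used. Whole reads were recovered from 100% of the values in each library, within 0.02 reads.

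Values were taken to log2(normalized count + 1), which understates changes of low genes. The 13983 genes whose mean normalized count reached 10 were fitted together in limma 3.58.1 (R 4.3.3; trend option). Tests were two-sided, p-values were adjusted over all these genes by Benjamini-Hochberg, and the threshold was 0.05. P-values measure the spread between 2 mice per group. GC content and length came from GENCODE M21, using the longest protein-coding transcript of a gene (of any kind for other genes), a choice made after values were seen, and 16008 genes matched. Loess (span 0.3) of each library's deviations on both gave the corrected values. Intervals are 95% limma intervals and do not cover the choice of correction.

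The 39 members, the marker lists and the pathway lists were chosen with earlier results of these data known. All members are named. Of each pathway list, the genes named are the 2 with the largest log2 fold change in each direction among those that passed the test, had groups apart and had a mean normalized count of 100 or more. Alternatives were pseudocounts of 0.5 and 5, no filter or a mean of at least 50, scaling by library total or by TMM, edgeR 4.0.16 (quasi-likelihood) and DESeq2 1.42.0 on the recovered reads, the mouse number as a block, the correction, and leaving out each mouse. A fit without 1 mouse assumes that the lone mouse of that group varies like the other group. Promoter windows are from RefSeq (GRCm38.p6).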

Additional observations from a re-analysis of the deposited data

How the results depend on the processing

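Settings that changed neither a direction nor a call of the 39 genes were the other pseudocounts, no filter on low values and a mean of at least 50. The mouse numbers are names only, since the deviations of same-numbered mice correlated at -0.09. With the replicate block alone 13 of the 39 genes rose and 7 fell, and 3899 of all tested genes were higher and 3789 lower. *Atg16l1* then lost its call (limma, adjusted p = 0.0722). The correction for GC content and length, without and with the replicate block, left 2411 and 2089 of all tested genes higher and 2377 and 2100 lower. The median log2 fold change of the 39 genes was 0.23 with both, and with correction and block together 9 of the 39 rose. The correction, with the same values under the block, also turned the direction of *Atg10* (-0.79), *Atg101* (1.03), *Atg2a* (0.10), *Atg3* (-0.63), *Atg4a* (-0.16), *Atg9a* (0.42), *Becn1* (-0.41), *Calcoco1* (0.16), *Gabarapl1* (0.056), *Pik3r4* (0.16), *Tfeb* (0.91), *Ulk1* (0.63) and *Ulk2* (-0.084). Scaling by library total moved the median of all genes from -0.04 to -0.26, with 3091 higher and 4885 lower, and that of the 39 genes to -0.16, with 12 that rose and 11 that fell. It put *Atg13* at -0.16, *Atg3* at -0.22 and *Wipi2* at -0.0096. *Atg3*, at 0.01 as deposited, was at -0.0073 with TMM, -0.017 with edgeR and -0.0097 with DESeq2. The cause of these shifts was not tested.

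With 1 mouse left out at a time there were 2654 to 3154 higher and 2205 to 2852 lower among all genes, and 11 to 12 that rose, 4 to 6 that fell and a median of 0.011 to 0.19 among the 39. Of the 21 called genes 3 to 5 lost their call in each of these fits, and none changed direction. Among genes not called, *Atg101* ranged from -0.12 to 0.084, *Uvrag* from -0.39 to 0.034 and *Atg3* from -0.17 to 0.19, with *Atg101* and *Uvrag* above 0 without control mouse 1 and *Atg3* below 0 without control mouse 1 or cKO-labelled mouse 2. With the correction and a mouse left out, 1 to 12 of the 39 rose and 0 to 4 fell, namely 8 and 4 without control mouse 1, 12 and 2 without control mouse 2, 1 and 0 without cKO-labelled mouse 1, and 1 and 2 without cKO-labelled mouse 2. Among all genes the same fits, in that order, gave 1889, 2172, 175 and 325 higher and 1842, 2417, 289 and 424 lower. Depth limits *Map1lc3a* in the cKO-labelled libraries (9 and 21 reads) and *Atg10* (42 to 57 reads).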
